A study of Rattus norvegicus with 6 samples.

Results

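MicroRNA reads whose last base is an A that the hairpin does not encode were examined in 6 small RNA libraries of RSC96, a rat Schwann cell line. A sequence was taken as A-tailed where it lay on an annotated hairpin and differed from it by a single substitution, at its last base, to A. Of 9522 distinct sequences in the 6 libraries, 7356 lay on annotated hairpins and 585 of these were A-tailed. Abundance is given as the A-tailed share, the percentage of all read counts of a mature arm (5p where a sequence's centre comes before the midpoint of the hairpin, 3p where it comes after) held by its A-tailed sequences. Shares were computed in the 58 of 362 annotated arms that had 100 or more counts in every library; these 58 arms hold 351 of the 585 A-tailed sequences.

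The study asked how high glucose affects the small RNAs of Schwann cells, and its title speaks of their exosomes. RSC96 cells were kept for 48 h in high glucose (3 libraries) or in low glucose (3 libraries), the latter serving as the controls; no other agent or genetic change is labelled. All libraries come from this 1 immortalised line. The labels do not say whether RNA came from vesicles or from whole cells, their extraction text names retina although the sample fields name nerve and RSC96, and nothing states that replicates were separate cultures, so p-values measure only how these libraries vary, which may be technical variation.

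Libraries held 963706, 1278405 and 1354456 counts in high glucose and 123716, 148143 and 114615 in low glucose. Arm counts therefore ran from 267 to 240623 in high glucose and from 118 to 67757 in low glucose. A sequence was listed only with 2 or more reads, which made the lowest share a sequence could show 0.0292% in high and 0.456% in low glucose at the median arm. The markers of Schwann cells are protein-coding and were not measured. Among 5 retina-enriched miRNAs, miR-96 was not listed and the others summed to 57.9 to 116 CPM (counts per 1000000 counts of the library) in high and 67.5 to 131 in low glucose.

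Non-templated adenylation is carried out by terminal nucleotidyltransferases, of which GLD-2 (TENT2) and PAPD5 (TENT4B) are known to act on mature miRNAs. GLD-2 is known for adding a 3′ A to miR-122 in liver, and PAPD5 for adenylating miR-21. The added base lies outside the seed, the bases near the 5′ end that pair with targets, and A and U tails have been linked to stability and turnover of individual miRNAs. U tails come from other members of the same enzyme family.

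The A-tailed sequences that the results turn on are given as DNA letters, as in the deposited files, 5′ to 3′, with the non-templated A in capitals. The first set holds the most abundant A-tailed sequence of the arms with the highest A-tailed shares or the most A-tailed counts.
miR-27a-3p: ttcacagtggctaagttccgA
miR-378a-3p: actggacttggagtcagaaggcA
miR-486-5p: tcctgtactgagctgccccgagA
let-7b-5p: tgaggtagtaggttgtgtggttA
miR-21-5p: tagcttatcagactgatgttgacA

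The second set holds the arms whose share was higher in high glucose.
miR-20a-5p: taaagtgcttatagtgcaggtagA
miR-24-3p: tggctcagttcagcaggaacagA
miR-191a-5p: caacggaatcccaaaagcagctgA
let-7g-5p: tgaggtagtagtttgtacagttA

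The third set holds the arms whose share was lower in high glucose.
miR-122-5p: tggagtgtgacaatggtgtttgA
miR-99a-5p: aacccgtagatccgatcttgtgA
miR-10a-5p: accctgtagatccgaatttgtgA
miR-10b-5p: taccctgtagaaccgaatttgtgA
miR-423-5p: tgaggggcagagagcgagacA
miR-30d-5p: tgtaaacatccccgactggaagcA
let-7c-5p: tgaggtagtaggttgtatggttA

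Mature sequences of 52 of the 58 arms were found in RefSeq (GRCr8 table), and for 32 of them the most abundant exact sequence of the files (here the main sequence) was the RefSeq one. They fall into 39 seeds (bases 2 to 8, in capitals). Of the matures printed, the let-7 members share a seed. The RefSeq matures show where the tail sits.
let-7b-5p: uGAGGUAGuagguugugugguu
let-7c-5p: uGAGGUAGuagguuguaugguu
let-7g-5p: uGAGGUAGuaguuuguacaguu
miR-27a-3p: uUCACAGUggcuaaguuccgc
miR-24-3p: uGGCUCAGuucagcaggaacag
miR-191a-5p: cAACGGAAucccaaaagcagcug
miR-122-5p: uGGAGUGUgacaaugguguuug
miR-10a-5p: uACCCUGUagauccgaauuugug
For let-7b-5p, let-7c-5p, let-7g-5p, miR-24-3p, miR-191a-5p and miR-122-5p the A followed directly on the last base of the RefSeq mature form. For miR-27a-3p the A stood in the place of the last base of that form. The miR-10a-5p sequence shown lacks the first base of its RefSeq form, which shifts the seed, and its A follows the last base of that form.

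A-tailed sequences were found in every one of the 58 arms, but their share ranged from 0.190% to 43.9% of an arm's counts (mean of the 6 libraries). The median arm had 3.56%. Of the 58 arms, 11 had a mean share over 10%, 37 lay between 1% and 10%, and 10 were under 1%. A-tailed counts were present in all 6 libraries in 46 arms. The 10 arms with the most A-tailed counts held 68.5% of them, and let-7b-5p and miR-21-5p together held 29.6%.

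The highest share was that of miR-27a-3p, a member of the miR-23, miR-27 and miR-24 cluster. Its A-tailed share was 47.3%, 48.7% and 55.7% in the high-glucose libraries and 37.8%, 35.2% and 38.7% in the low-glucose libraries. Its main exact sequence held less of the arm, 19.4% to 20.1% in high and 23.9% to 29.8% in low glucose. The miR-27a-3p groups did not overlap, yet the difference did not pass the test (log2 odds ratio 0.79, SE 0.25, adjusted p = 0.0635, edgeR).

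miR-378a-3p, encoded in an intron of the metabolic coactivator gene Ppargc1b, followed with 33.7%, 37.9% and 33.0% in high and 36.1%, 34.7% and 38.6% in low glucose. The groups overlapped (log2 odds ratio -0.10, SE 0.21). The mean share over 6 libraries was 20.1% for miR-218a-5p, a neuron-enriched miRNA, and 18.8% for miR-152-3p, of the miR-148 family. It was 15.9% for the hypoxia-induced miR-210-3p, 13.9% for let-7i-5p and 13.2% for miR-101a-3p. None of these 5 passed the test between the groups, although let-7i-5p and miR-210-3p lay lower, and miR-218a-5p higher, in every high-glucose library than in any low-glucose library. The most abundant form of miR-210-3p was its main sequence followed by A and then U, with a mean of 46.8% of the arm. The A-tailed share does not count that form.

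The most abundant miRNA of these libraries, miR-21-5p, had a low and even share. It was 2.03%, 1.84% and 2.28% in high and 1.82%, 1.86% and 2.18% in low glucose, with arm counts of 49833 or more in each library. The let-7b-5p share was 8.98%, 9.26% and 10.3% in high and 9.21%, 8.95% and 8.34% in low glucose. Both overlapped between the groups, with log2 odds ratios of 0.07 (SE 0.12) for miR-21-5p and 0.11 (SE 0.13) for let-7b-5p. let-7f-5p (log2 odds ratio -0.18) and miR-222-3p, a regulator of the cell cycle inhibitor p27 (0.36), also had many A-tailed counts and did not pass the test.

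Pooled over the 58 arms, the A-tailed share was 3.60%, 3.16% and 3.90% in high glucose and 3.72%, 3.37% and 3.79% in low glucose. The means were 3.55% ± 0.374 and 3.63% ± 0.225 (SD, n = 3 each), a difference of less than the spread between libraries (exact two-sided permutation test, p = 0.7). With 3 against 3 libraries this test cannot give a p under 0.1. On 5p arms the share was 3.17% ± 0.362 in high and 3.33% ± 0.193 in low glucose (n = 3). On 3p arms it was 6.23% ± 0.526 and 5.96% ± 0.632. Of the 11 arms over 10%, 6 were among the 22 3p arms and 5 among the 36 5p arms.

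The A-tailed share was set beside the other substitutions read in the same way. A terminal U held 2.95% ± 0.160 of the counts in high and 2.36% ± 0.117 in low glucose (n = 3). A terminal C held 2.73% ± 0.258 and 1.89% ± 0.196. A terminal G was rare, at 0.120% ± 0.00755 and 0.337% ± 0.117. These 3 measures separated the groups completely, each with the smallest p the design allows (exact permutation test, p = 0.1, adjusted over 21 library measures p = 0.162). A substitution to A at an inner position held 0.0370% of the counts per position in high and 0.0167% in low glucose. It is not a measure of misread bases alone, as an added A followed by a base that matches the hairpin also counts there. An example is miR-128-3p ending in tttat, with 1245, 2113 and 1918 counts in high and 32, 39 and 79 in low glucose. The terminal A share was 96.0 times that level in high and 218 times in low glucose.

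Across arms, the A-tailed share exceeded the U share in 35, the C share in 38 and the G share in 55 of 58 arms. Median mean shares were 3.56% for A, 2.65% for U, 1.61% for C and 0.161% for G. Some arms carried both kinds of tail. miR-27a-3p had 15.7% and 14.9% terminal U in high and low glucose, and miR-152-3p had 50.9% and 42.1%, above its A share. A U added where the hairpin has U, as it has at the tailed place of the miR-122-5p, miR-10a-5p and let-7g-5p sequences shown, reads as exact and is not counted as terminal U.

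Most A tails sat at the usual end of the miRNA. The body of a tailed sequence is the part before the A. In 68.1% ± 2.09 of the A-tailed counts in high and 63.2% ± 0.728 in low glucose (n = 3), the body ended where the arm's main sequence ends, so that the A made it 1 base longer. It ended 1 base earlier in 14.8% ± 1.38 and 12.9% ± 0.371, and 1 base later in 12.4% ± 0.780 and 20.01% ± 0.797. The 5′ end was that of the main sequence in 95.9% ± 0.194 and 96.2% ± 0.352. Terminal C substitutions had another pattern: 75.9% to 83.4% of them, over the 6 libraries, took the place of the main sequence's own last base, and 90.9% to 96.3% replaced a U. Terminal U had 40.9% to 53.2% with the body at the main end.

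In 25 of the 58 arms the most abundant A-tailed sequence was the main sequence with an A after it. This was so for let-7b-5p, let-7c-5p, let-7g-5p, let-7i-5p, miR-21-5p, miR-24-3p, miR-191a-5p, miR-20a-5p, miR-27a-3p and miR-378a-3p. In 11 arms the body ran past the end of the main sequence, as in miR-122-5p, miR-99a-5p and miR-486-5p. In 18 arms it was shorter, as in miR-423-5p and miR-30d-5p. An A added where the hairpin also has A reads as an exact, longer sequence and is not counted. The base after the main sequence was A in 13 arms, whose median share was 1.76%, against 3.79% in the other 45.

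The base before the A also differed between the groups. It was U in 49.8% ± 2.21 of the A-tailed counts in high and 30.7% ± 2.97 in low glucose (n = 3), and C in 18.9% ± 1.42 and 30.2% ± 2.51. In both pairs the 3 high-glucose libraries lay apart from the 3 low-glucose libraries (exact permutation test, p = 0.1, adjusted p = 0.162). The let-7 tails shown above follow a U and the miR-21-5p tail follows a C. Pooled values weight each arm by its counts, and the make-up of the arms differed: miR-21-5p had 183674, 163122 and 240623 of 850953, 1137841 and 1237200 counts in the 58 arms in high glucose. In low glucose it had 51980, 67757 and 49833 of 108196, 130810 and 97523. The part of this difference in the base before the A was not tested.

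Comparing high with low glucose arm by arm, the A-tailed share rose in 4 and fell in 7 of the 57 arms with 10 or more A-tailed counts (edgeR's quasi-likelihood test on tailed against other counts, Benjamini-Hochberg adjusted p under 0.05). These are 7.02% and 12.3% of the arms tested. The arm left out, miR-451-5p, had too few A-tailed counts. All 11 had groups that did not overlap, as did 24 of the 58 arms (41.4%), 9 with the high-glucose libraries above (15.5%) and 15 with them below (25.9%). The median log2 odds ratio over all 57 arms was -0.21. Group means across the 58 arms gave a Pearson r of 0.853, and 0.904 without miR-122-5p; the points share libraries and differ in depth. At an unadjusted p under 0.05, 6 arms were higher and 12 lower.

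The largest difference was in miR-122-5p, a miRNA best known from hepatocytes. Its A-tailed share was 1.84%, 1.14% and 1.31% in the high-glucose libraries against 23.9%, 21.9% and 22.4% in the low-glucose libraries. The odds of a tailed read were 20.7-fold lower in high glucose (log2 odds ratio -4.37, SE 0.26, adjusted p = 4.94e-05, edgeR). Most came from the 23-nt sequence shown above, at positions 15 to 37 of the 85-nt hairpin, with counts of 136, 170 and 179 in high and 103, 92 and 97 in low glucose. The counts of the whole arm were 8220, 18051 and 16319 against 461, 448 and 482. Its 21-nt main sequence, which stops before the last base of the RefSeq form, held 83.0% to 87.2% of the arm in high and 45.8% to 51.8% in low glucose.

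In miR-99a-5p, of the family known for targeting mTOR, the share was 1.66%, 1.06% and 1.66% in high and 5.73%, 5.41% and 5.16% in low glucose. This is a log2 odds ratio of -1.98 (SE 0.20, adjusted p = 0.000997, edgeR). No library of either group came near the other group. miR-122-5p and miR-99a-5p were the 2 arms that still passed the test whichever library was left out.

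The Hox cluster miRNAs miR-10a-5p and miR-10b-5p fell from low shares to lower ones. miR-10a-5p had 0.939%, 0.457% and 1.19% in high and 2.03%, 2.63% and 2.11% in low glucose (log2 odds ratio -1.51, SE 0.38). miR-10b-5p had 0.973%, 0.535% and 0.885% against 1.75%, 1.61% and 1.72% (-1.14, SE 0.26). The low-glucose values of miR-10b-5p rest on 27 to 29 A-tailed counts in each library.

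The other 3 arms that fell were miR-423-5p, miR-30d-5p and let-7c-5p. miR-423-5p had 1.89%, 1.48% and 2.13% in high and 3.17%, 3.49% and 4.57% in low glucose (log2 odds ratio -1.07, SE 0.24). For miR-30d-5p the shares were 0.949%, 1.16% and 0.997% against 2.13%, 1.62% and 2.06% (-0.92, SE 0.17). let-7c-5p, of the differentiation-linked let-7 family, had 3.33%, 2.64% and 3.26% against 4.52%, 4.04% and 4.997% (-0.58, SE 0.15), and this call was lost in limma (adjusted p = 0.105). Adjusted p-values of these 5 smaller falls lay between 0.0218 and 0.0364 (edgeR), and the groups stood apart in each.

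Among the 4 arms that rose, miR-20a-5p had the largest odds ratio and the least depth. This member of the proliferation-linked miR-17 family had 29.7%, 11.0% and 11.6% in high and 3.01%, 0.980% and 3.39% in low glucose (log2 odds ratio 3.08, SE 0.86, adjusted p = 0.0499, edgeR). Its A-tailed counts were 90, 35 and 31 against 4, 2 and 4. The first high-glucose library was far above the other two. The call was lost with no minimum of A-tailed counts, with 50 or more counts per arm, without sequences shared by miRNAs and with predicted hairpins added (edgeR, adjusted p from 0.0509 to 0.0672).

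miR-191a-5p, often used as a reference miRNA for its even level, had one of the highest shares of all arms. It was 34.9%, 27.1% and 27.6% in high and 17.3%, 14.9% and 16.2% in low glucose (log2 odds ratio 1.14, SE 0.25, adjusted p = 0.0246, edgeR). The lowest high-glucose value exceeded the highest low-glucose value by a wide margin.

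miR-24-3p had 4.51%, 2.46% and 4.29% in high and 1.58%, 1.16% and 1.56% in low glucose (log2 odds ratio 1.39, SE 0.31). let-7g-5p had 8.10%, 8.01% and 10.1% against 5.83%, 5.11% and 5.29% (0.74, SE 0.16). Both had an adjusted p of 0.0246 (edgeR). Apart from miR-122-5p and miR-99a-5p, the calls depended on which library was left out. Without 1 library other than the second high-glucose one, no arm was called higher (3 to 7 at an unadjusted p under 0.05; edgeR was the only tool run on these fits) and 2 or 3 were called lower. Without the second high-glucose library 5 were higher and 10 lower.

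Of the 7 arms that fell, 5 also had a lower share of templated longer forms in high glucose. The share of exact sequences running past the end of the main sequence was 3.11% ± 0.868 in high and 22.8% ± 1.18 in low glucose (n = 3) for miR-122-5p. It was 3.55% ± 1.44 and 21.03% ± 2.37 for miR-10a-5p, 2.49% ± 0.789 and 22.2% ± 1.92 for miR-10b-5p, and 0.750% ± 0.377 and 5.69% ± 0.650 for miR-99a-5p. In let-7c-5p it was 4.59% ± 0.597 and 6.83% ± 0.478. The groups did not overlap in these 5. Over all 58 arms, high glucose lay below in 19 (32.8%) and above in 9 (15.5%). Of the other 2 arms that fell, miR-423-5p overlapped and miR-30d-5p had 0.0365% in high and 0 in low glucose. A lower share was also seen in 1 of the 4 arms that rose. It was miR-191a-5p, with 13.5% ± 2.55 in high and 19.2% ± 1.85 in low glucose, groups apart. The other 3 overlapped.

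Each arm's main A-tailed sequence was therefore also compared with its own templated body, the same sequence without the A, a comparison added after the data were seen. In miR-122-5p the tailed form made up 46.3%, 32.6% and 42.8% of the pair in high and 56.9%, 53.5% and 52.2% in low glucose. The difference kept its direction at a smaller size and did not pass the test (log2 odds ratio -0.80, SE 0.37, adjusted p = 0.203, edgeR). The counts of that 22-nt body, the RefSeq mature form, were 158, 351 and 239 in high and 78, 80 and 89 in low glucose.

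In 3 of the 11 called arms the direction turned, as it did in 11 arms that had not been called, out of 53 pairs. The tailed form of miR-99a-5p made up 64.3% ± 7.69 of its pair in high and 47.7% ± 2.64 in low glucose (n = 3; log2 odds ratio 0.99, SE 0.30, adjusted p = 0.0807, edgeR). For miR-10a-5p the values were 40.5% ± 2.81 and 19.96% ± 1.55 (1.45, adjusted p = 0.0573, edgeR). For miR-10b-5p they were 37.0% ± 8.26 and 12.2% ± 3.08 (2.08, adjusted p = 0.0573, edgeR). Both forms of the miR-10a-5p pair lack the first base of the RefSeq form. Against the whole arm these 3 tailed sequences were rarer in high glucose, and against their own bodies they were more frequent, short of the threshold.

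let-7g-5p alone passed the test in this comparison, 1 of 53 pairs tested (1.89%) higher and 0 lower. Its tailed form made up 10.6%, 11.6% and 13.9% of the pair in high and 7.23%, 6.12% and 6.38% in low glucose (log2 odds ratio 0.95, SE 0.15, adjusted p = 0.0256, edgeR). At an unadjusted p under 0.05, 12 pairs were higher and 4 lower; no other tool was run on the pairs. miR-191a-5p, miR-24-3p and miR-20a-5p kept their direction, with log2 odds ratios of 1.56, 1.57 and 3.32 and adjusted p-values from 0.0573 to 0.0889 (edgeR). let-7c-5p, miR-423-5p and miR-30d-5p also kept theirs, at -0.71, -0.85 and -0.52, without passing. The miR-423-5p value rests on only 7, 5 and 7 body counts in low glucose. The tailed sequence of that pair held 403 of the 1187 A-tailed counts of the arm, and another, with a longer body, held 400.

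Grouped by family, the let-7 and miR-98 list had 6 tested arms with mean shares from 3.68% to 13.9%, of which let-7g-5p rose and let-7c-5p fell. The median log2 odds ratio of these 6 was -0.18, beside -0.21 over all 57. In the miR-10, miR-99 and miR-100 list 3 of 5 arms fell and none rose, with a median of -1.14; over all arms 12.3% fell and 7.02% rose. All 3 are the arms whose direction turned against their own bodies. The other 2 were miR-99b-5p, with 3.51% ± 0.580 in high and 5.45% ± 0.978 in low glucose, and miR-100-5p, with 5.60% ± 1.24 and 4.33% ± 0.365 (n = 3). Neither passed the test, and miR-100-5p overlapped between the groups.

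The miR-23, miR-24 and miR-27 list had 5 tested arms, of which miR-24-3p rose (7.02% over all arms); shares ran from 0.668% to 43.9%. In the miR-30 list 1 of 2 arms fell (12.3% over all arms). No list this short is read as a family result. None of the 3 miR-125 arms, the 2 miR-101 arms, the 2 miR-146 arms or the 2 miR-221 and miR-222 arms passed in either direction. The miR-181 list and the miR-130 and miR-301 list had no arm deep enough to enter. Of the 2 miRNAs listed as reported poly(A) polymerase substrates, miR-122-5p fell and miR-21-5p had the values given above.

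miR-486-5p, an erythroid miRNA, had 17.6%, 14.8% and 15.1% A-tailed counts in high and 29.2%, 25.9% and 31.2% in low glucose. The groups stood apart, but the difference missed the threshold (log2 odds ratio -1.11, SE 0.33, adjusted p = 0.0575, edgeR). Its terminal U share had the opposite order, 21.6% in high and 6.55% in low glucose. Against its own body the tailed form made up 78.9% ± 5.96 and 74.5% ± 1.04 (n = 3), with no difference past the test.

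Summed levels of erythroid, liver and neuron-enriched miRNAs separated the groups, and those of muscle, leukocyte and retina miRNAs overlapped. All libraries are labelled as the same Schwann cell line, so these sums are not read as numbers of cells of a type. Where these miRNAs came from was not tested. The 3 erythroid miRNAs, all listed, summed to 687 to 914 CPM in high and 3274 to 6230 in low glucose. The 3 liver miRNAs, all listed, summed to 9214 to 14931 and 3220 to 4572, and miR-122-5p made up most of this in both groups. Of 5 neuron-enriched miRNAs miR-124 was not listed, and the sum was 16732 to 21957 against 8006 to 9039. Most of the high-glucose sum was miR-128-3p, with arm counts of 13809, 24869 and 24604 in high and 210, 207 and 349 in low glucose. miR-218a-5p went the other way. Its arm counts were 762, 1022 and 1445 against 601, 769 and 513, a lower level in high glucose relative to the library totals. Of 4 muscle miRNAs miR-133a and miR-133b were not listed, and the sum was 0 to 54.0 against 0. The 4 leukocyte miRNAs summed to 45.0 to 250.1 against 121 to 157. The part of such differences in the A-tailed shares of miR-122-5p, miR-486-5p and the neuron-enriched miR-218a-5p was not tested. Depth differed 9.31-fold between the groups. With all libraries thinned to the smallest, miR-122-5p was called lower in 21 of 21 draws (log2 odds ratio -4.97 to -4.06, edgeR). At that depth miR-486-5p was not deep enough to be tested in any draw, and miR-218a-5p was tested in 2 and called in neither.

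Outside the 58 arms, 236 A-tailed sequences lay on 111 arms with 14993 counts in all. The most abundant, chosen after its values were seen, was on miR-151-3p with 6624 counts, of which 3, 6 and 8 came from the low-glucose libraries. Its sequence is shown because no share could be given for its arm.
miR-151-3p: ctagactgaggctccttgaggaA
Over all 585 A-tailed sequences, 86 occurred in all 6 libraries, 355 in high glucose alone, 32 in low glucose alone and 258 in a single library. These counts were not adjusted for the unequal depth, and no difference between the groups is read from them.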

How the data were processed

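Small RNA of RSC96 cells was sequenced in 3 high-glucose and 3 low-glucose libraries, with groups and replicate numbers taken from the sample titles. The authors deposited raw read counts per distinct sequence and hairpin, with the place in the hairpin and the mismatch, per the file headers. Novoalign 3.02.12 and cutadapt 1.9.3 appear in the submitters' processing notes, with no role stated. Neither a genome build nor a hairpin release is named by the labels or file headers, and positions are therefore hairpin positions from 1. Listed sequences were 16 to 40 nt long and had at least 2 reads and at most 1 mismatch or indel. Longer non-templated tails are therefore listed only where they read as 1 such change. Those whose last base is not the substituted A stay among the other counts of the arm. None of the A-tailed sequences was also listed as exact elsewhere. Reads of a sequence under several hairpins had been divided evenly among them, and copies of one miRNA were joined.

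Python 3.11.15 (pandas 2.3.3, NumPy 2.4.6, SciPy 1.17.1) was used for the shares. Tailed and other counts of each arm and library were fitted with edgeR 4.0.16 (R 4.3.3), with terms for library, tail and tail by group, in arms with 100 or more counts in every library and 10 or more A-tailed counts. The tail-by-group term is the log2 odds ratio, high over low glucose. p-values were adjusted by Benjamini-Hochberg at 0.05, and the script was tested on simulated data. Pooled measures used exact permutation tests over the 10 splits of 3 against 3. limma 3.58.1 (offset 0.5) and DESeq2 1.42.0 were alternatives, as were other minimums, thinning to the smallest library (21 draws), other denominators, joined or separate hairpins, a replicate block and leaving out each library. Depth was 114615 to 1354456 counts per library.

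The members and miRNA lists were chosen with earlier results of these data known. Arms to name were the 10 with the highest mean share, the 10 with the most A-tailed counts, up to 10 called in each direction, and the top 2 of each list, not all of which are described. A further rule, for deep arms with a mean share under 0.1%, found none.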

Additional observations from a re-analysis of the deposited data

How the results depend on the processing

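Of the 57 arms, 4 were higher and 7 lower. With 500 or more counts per arm 2 of 24 were higher and 8 lower, with 5 or more reads per sequence 9 of 56 and 9, thinned 2 to 5 and 6 to 11 of 40 to 45, and with each hairpin copy kept separate 7 were higher and 12 lower. Leaving out each library gave 0 to 5 higher and 2 to 10 lower, and the comparison with the own body gave 1 and 0. Same-numbered libraries did not deviate together (r = -0.152, -0.226 and -0.407). With deviations taken within groups of 3 libraries, this cannot decide whether the numbers pair them. A replicate block gave 4 higher and 9 lower. DESeq2 gave 5 and 10, limma 5 and 8. The pooled A-tailed share differed by -0.0789 percentage points (high minus low), by -0.252 to 0.119 without each library (above 0 without the second high-glucose library, and 0.00288 without the third low-glucose one), by 0.0208 when thinned and by 0.113 with 50 or more counts per arm. The thinned value pools 44 arms, and the one with 50 or more counts pools more arms than the main 58. The 5p share differed by -0.319 to 0.0392 without each library, positive without the second high-glucose one, and the share with the main 5′ end to 0.150 when thinned. Of log2 odds ratios, miR-101a-3p turned to 0.018 without shared sequences and ranged from -0.27 to 0.0082 without each library (positive without the first high-glucose one), and miR-21-5p from -0.012 to 0.15 (negative without the third high-glucose one). Against the own body, signs turned in 14 of 53 arms, among them the named arms miR-10a-5p (1.45), miR-10b-5p (2.08), miR-99a-5p (0.99), miR-99b-5p (0.39), miR-486-5p (0.37) and miR-222-3p (-0.44). The cause was not tested. In low glucose the depth limits arms near 100 counts, where 2 reads make up to 1.69% of an arm.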
